A study of Oryza sativa Japonica Group with 31 samples.

Results

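The 8 loci described here are named for enzymes of a synthesis step and a breakdown step of the plant hormone abscisic acid (ABA) in rice. They are 5 loci named as members of the NCED family, NCED1 to NCED5, and 3 named as ABA 8'-hydroxylases, ABA8ox1 to ABA8ox3. They were picked by locus identifier, as genes of this pathway, from a table of 55801 loci, with earlier results of these data known. Leaves of seedlings of the japonica cultivar Nipponbare were profiled after cold treatment (Cold) and without it (CK). Day 13 is given as the start for both treatments, and so is a cycle of 12 h light and 12 h dark. Cold seedlings spent 24 h at 4 °C. CK seedlings were kept at 28 °C in the light phase and at 22 °C in the dark phase. The labels give no transgene, mutation or other agent for either treatment, and they call the tissue leaf although RNA is said to come from seedlings. There were 2 RNA-seq libraries from Cold seedlings and 2 from CK seedlings.

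ABA is made from carotenoids. NCED enzymes, the 9-cis-epoxycarotenoid dioxygenases, work in plastids and cut violaxanthin and neoxanthin to xanthoxin, the step usually regarded as limiting for ABA synthesis. Xanthoxin is then turned into ABA in the cytosol. ABA 8'-hydroxylases are cytochrome P450 enzymes of the CYP707A family, and they start the main route of ABA breakdown, which leads to phaseic acid. In leaves ABA is known for closing stomata and for switching on genes of drought and cold responses, and both enzyme groups are encoded by several genes. That each of the 5 loci named NCED makes xanthoxin was taken from its name and was not tested here.

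The values are the authors' FPKM, fragment counts scaled to locus length and sequencing depth, in 1 column for Cold and 1 for CK. Each number below is therefore the authors' value for a treatment, with no replicate error, and no p-value is given. The sources used here do not say how 2 libraries became 1 column. The reads behind each value are unknown, so the counting error of low values is unknown too. The summed FPKM was 554475 in Cold and 584870 in CK. Of all loci, 20876 had a mean of at least 1 FPKM over both columns, and these are the loci compared below. All 8 genes were among them. The leaf label was not checked against marker genes, since the identifiers carry no gene names in the tables used here. In whole tissue, fewer cells of a type and less RNA per cell cannot be told apart. Fold changes are given as ratios of FPKM and as differences of log2(FPKM + 1), which understate the change of weakly expressed genes.

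Most transcripts named for ABA synthesis, and all those named for ABA breakdown, were at higher levels in Cold leaves. Of the 8 genes, 7 were higher in Cold, 4 of the 5 NCED genes and all 3 ABA8ox genes, and NCED2 alone was lower. The ratios of the 7 higher genes ran from 1.98 for ABA8ox2 to 21.5 for ABA8ox3. On the log2(FPKM + 1) scale 6 of the 8 genes were at least 2-fold higher in Cold, while 12.5% of the 20876 loci were. At least 2-fold lower was 1 of the 8, against 19.2% of the loci. The median log2 fold change of the 8 genes was 1.98, and that of all 20876 loci was -0.27.

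**Figure D1:**
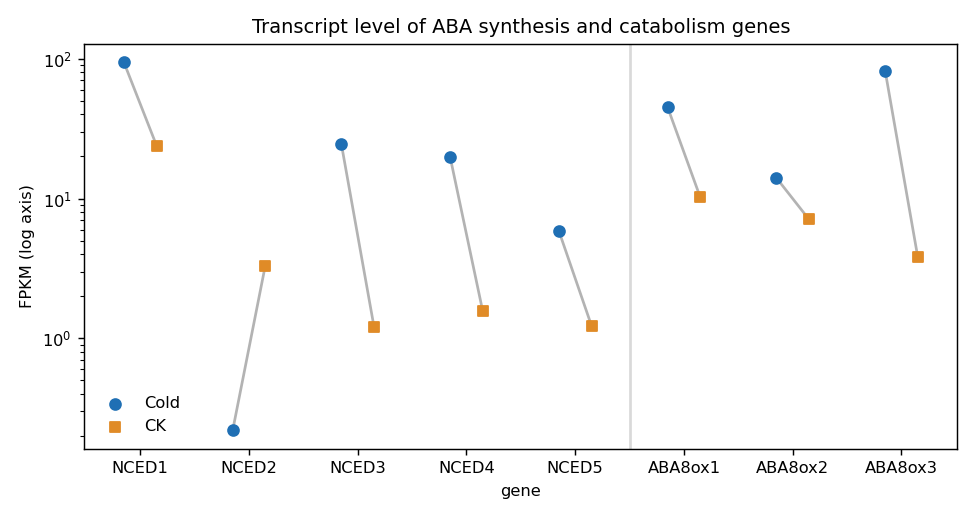
Level of each gene in FPKM on a log axis, with the authors' Cold value as a blue circle and their CK value as an orange square, joined by a line. Cold lies above CK for 7 genes, and NCED2 is the exception, at 0.220 FPKM in Cold and 3.32 FPKM in CK.

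NCED1 (LOC_Os02g47510, chromosome 2) was the most abundant NCED transcript in either treatment. It was listed at 94.0 FPKM in Cold and 23.9 FPKM in CK, a ratio of 3.93 and a log2 fold change of 1.93. Its Cold level exceeded that of 95.5% of the compared loci, and its CK level that of 77.0%. NCED1 alone held 65.2% of the summed NCED FPKM in Cold and 76.6% in CK.

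NCED3 and NCED4 were weakly expressed in CK leaves and had the highest ratios of Cold over CK in the family. NCED3 (LOC_Os03g44380, chromosome 3) was listed at 24.4 FPKM in Cold and 1.21 FPKM in CK, a ratio of 20.2. Its log2 fold change of 3.52 ranked 125th from the top among the 20876 loci. NCED4 (LOC_Os07g05940, chromosome 7) was listed at 19.8 FPKM in Cold and 1.56 FPKM in CK, a ratio of 12.7, with a log2 fold change of 3.02 at rank 244. These paralogues, both among the 3 lowest NCED transcripts in CK, thus followed NCED1 in the order of the Cold levels. NCED3 made up 16.9% of the summed NCED FPKM in Cold and 3.86% in CK, and NCED4 made up 13.7% in Cold and 4.99% in CK.

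NCED5 (LOC_Os12g42280, chromosome 12) had a similar CK level and differed less. It was listed at 5.85 FPKM in Cold and 1.23 FPKM in CK, a ratio of 4.76 and a log2 fold change of 1.62. Its share of the NCED sum was nearly the same, at 4.06% in Cold and 3.94% in CK. The CK values of NCED5 and NCED3 differed by a ratio of only 1.02, while in Cold NCED3 was well above NCED5.

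NCED2 (LOC_Os12g24800, chromosome 12) went the other way. This gene was listed at 0.220 FPKM in Cold and 3.32 FPKM in CK, a 15.1-fold lower level and a log2 fold change of -1.82. It was the second most abundant NCED transcript in CK, with 10.6% of the sum, and the least abundant in Cold, with 0.152%. NCED2 reached the floor of 1 FPKM on its mean through the CK column alone. It lies on the same chromosome as NCED5, which was higher in Cold. How many reads stand behind the low Cold value is unknown.

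Among the genes of ABA breakdown, ABA8ox3 (LOC_Os09g28390, chromosome 9) stood furthest from its CK level. It was listed at 82.0 FPKM in Cold and 3.82 FPKM in CK, a ratio of 21.5. Its log2 fold change of 4.11 was the largest of the 8 genes and ranked 72nd among the 20876 loci. ABA8ox3 was the lowest of the 3 hydroxylase transcripts in CK, with 18.1% of their sum, and the highest in Cold, with 58.2%.

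ABA8ox1 (LOC_Os02g47470, chromosome 2), which in rice is known to respond to ethylene and submergence, was listed at 44.9 FPKM in Cold and 10.2 FPKM in CK. That is a ratio of 4.40 and a log2 fold change of 2.03. It held 31.8% of the hydroxylase sum in Cold and 48.3% in CK, where it was the most abundant of the 3. ABA8ox2 (LOC_Os08g36860, chromosome 8) differed least, at 14.0 FPKM in Cold and 7.09 FPKM in CK. Its ratio of 1.98 and log2 fold change of 0.90 lay just under the 2-fold limit. It passed that limit, at 1.00, 1.06 and 1.21, when the columns were rescaled to the same sum, quantile normalized or scaled by the median of ratios. Its share of the hydroxylase sum was 9.97% in Cold and 33.6% in CK.

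**Figure D2:**
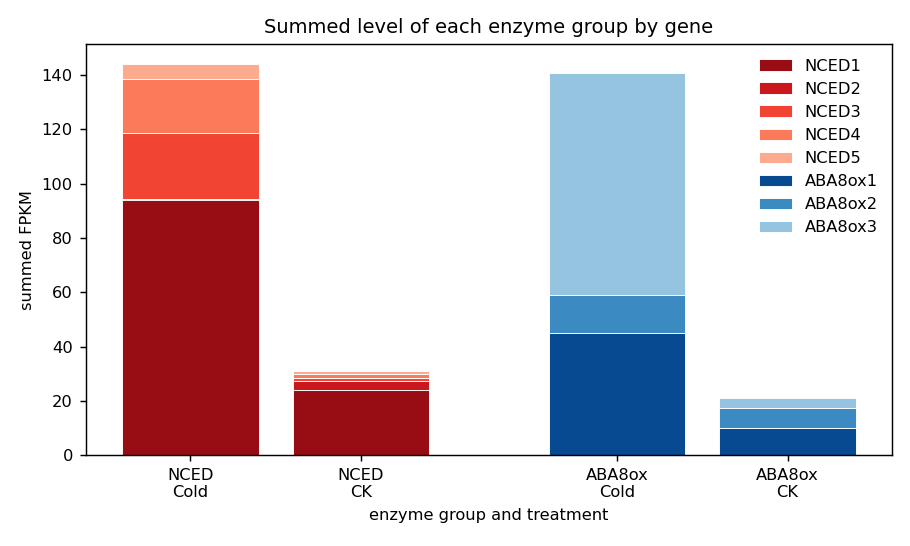
Summed FPKM of the 5 NCED genes (reds) and the 3 ABA8ox genes (blues), Cold left of CK, stacked by gene. The Cold sums are 144 FPKM for NCED and 141 FPKM for ABA8ox, against CK sums of 31.2 FPKM and 21.1 FPKM. NCED1 fills most of both NCED bars, and ABA8ox3 fills most of the ABA8ox bar in Cold but not in CK.

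Since FPKM is per length, the levels of the genes of a group can be added. The NCED sum was 144 FPKM in Cold and 31.2 FPKM in CK, a ratio of 4.62 and a log2 fold change of 2.17. NCED1 made up 62.0% of the difference of 113 FPKM between the treatments, NCED3 made up 20.5% and NCED4 made up 16.1%. Without NCED1 the NCED sum was 50.2 FPKM in Cold and 7.31 FPKM in CK, a ratio of 6.87. The ABA8ox sum was 141 FPKM in Cold and 21.1 FPKM in CK, a ratio of 6.68 and a log2 fold change of 2.68. ABA8ox3 made up 65.3% of that difference. Without ABA8ox3 the sum was 58.9 FPKM in Cold and 17.3 FPKM in CK, a ratio of 3.41.

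The sums of transcripts named for synthesis and for breakdown were thus both higher in Cold, and their balance differed by less than either sum. The NCED sum was 1.02 times the ABA8ox sum in Cold and 1.48 times in CK, a log2 difference of -0.53. A ratio within a column does not change when a column is multiplied by a single factor. Quantile normalization, which is no such factor, gave a log2 difference of -0.60. The direction rested on single genes. Without ABA8ox3 the ratio was 2.45 in Cold and 1.81 in CK, a log2 difference of 0.44. Without NCED1 it was 0.356 in Cold and 0.346 in CK, a log2 difference of 0.041. These are ratios of transcript levels, and neither ABA nor enzyme activity was measured in the data used here. The NCED sum stands for synthesis by gene name only, and NCED1 held most of it. Whether NCED1 makes xanthoxin was not tested, and the sign of the log2 difference depends on whether NCED1 is counted.

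The order of the 8 transcripts was not the same in the treatments. In Cold it ran from NCED1 through ABA8ox3, ABA8ox1, NCED3, NCED4, ABA8ox2 and NCED5 to NCED2. In CK it ran from NCED1 through ABA8ox1, ABA8ox2, ABA8ox3, NCED2, NCED4 and NCED5 to NCED3. Some neighbours in these orders were close, with ratios of 1.15 between NCED1 and ABA8ox3 in Cold, 1.23 between NCED3 and NCED4 in Cold, and 1.15 between ABA8ox3 and NCED2 in CK. With no spread over samples it cannot be said which neighbours differ. The highest NCED level was 428 times the lowest in Cold, against 19.8 times in CK. This order rested on NCED2, since without it the span was 16.1 times in Cold and 19.8 times in CK. The 3 ABA8ox levels spanned a ratio of 5.84 in Cold and 2.67 in CK.

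**Figure D3:**
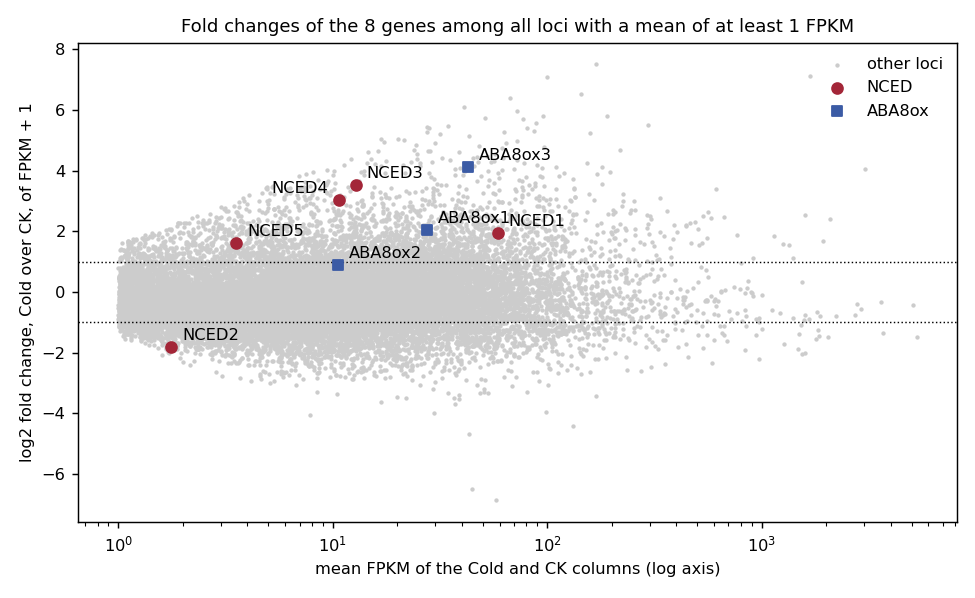
Log2 fold change of FPKM + 1, Cold over CK, against the mean FPKM of both columns on a log axis, for the 20876 loci compared. Grey points are other loci, red circles NCED genes, blue squares ABA8ox genes, and dotted lines mark 2-fold. ABA8ox3 at 4.11, NCED3 at 3.52 and NCED4 at 3.02 lie near the upper edge of the cloud, and NCED2 at -1.82 lies near its lower edge.

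Larger limits left the genes with the strongest differences. At least 4-fold higher in Cold were 4 of the 8 genes, NCED3, NCED4, ABA8ox1 and ABA8ox3, and 3.86% of the 20876 loci. At least 8-fold higher were 3 of them, ABA8ox3, NCED3 and NCED4, and 1.18% of the loci. None of the 8 was at least 4-fold lower on this scale, against 2.15% of the loci, or at least 8-fold lower, against 0.139%. With no pseudocount, by FPKM ratio, NCED2 was past both limits and NCED5, at 4.76, was also past the 4-fold limit.

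Each gene was also set beside loci of similar abundance, those whose mean lay within a factor of 2 of its own. For ABA8ox3 there were 4542 such loci with a median log2 fold change of -0.045, and 44 of them (0.969%), itself included, were at least as much higher in Cold. For NCED3 there were 41 of 7957 (0.515%), and for NCED4 85 of 8040 (1.06%). The fold changes of NCED1 and ABA8ox1 were more common, reached by 8.03% of 3375 loci and 4.69% of 6225 loci. That of NCED5 was reached by 4.07% of 6736 loci and that of ABA8ox2 by 12.6% of 8040. NCED2 had 5076 loci of similar abundance, of which 64 (1.26%) were at least as much lower. On the log2(FPKM + 1) scale the weakest of these loci could not fall as far, even with no signal in Cold. This share is therefore partly set by the scale.

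A second comparison, chosen after the values had been seen, took, from all 55801 loci and with no floor on the mean, those with a CK level within a factor of 2 of the gene's. Of 6885 loci with a CK level like that of ABA8ox3, the median Cold level was 3.00 FPKM, and 34 loci (0.494%) reached its 82.0 FPKM. Of 4770 loci like NCED3 in CK, the median Cold level was 0.873 FPKM, and 44 (0.922%) reached its 24.4 FPKM. For NCED4 the share was 1.42%, for NCED1 2.68%, for ABA8ox1 3.64%, for NCED5 6.55% and for ABA8ox2 16.4%. Of 6584 loci with a CK level like that of NCED2, 67 (1.02%) were at or below its Cold level.

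By their identifiers, NCED1 and ABA8ox1 lie close together on chromosome 2, a gene named for synthesis beside a gene named for breakdown. Between them stand 3 loci of the table. LOC_Os02g47480 was listed at 0 in both columns, and LOC_Os02g47490 at 0.0837 FPKM in Cold and 0 in CK. LOC_Os02g47500, next to NCED1, was listed at 7.02 FPKM in Cold and 6.63 FPKM in CK, a log2 fold change of 0.07. The log2 fold changes of NCED1 and ABA8ox1 on either side, 1.93 and 2.03, were thus alike, and the expressed locus between them stayed within 2-fold. Of the 5 nearest loci on the far side of ABA8ox1, the locus beside it was listed at 0 in both columns and was not compared. Of the others, 3 were at least 2-fold lower in Cold, with log2 fold changes between -1.59 and -1.01. The share at least 2-fold lower among all loci compared was 19.2%.

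**Figure D4:**
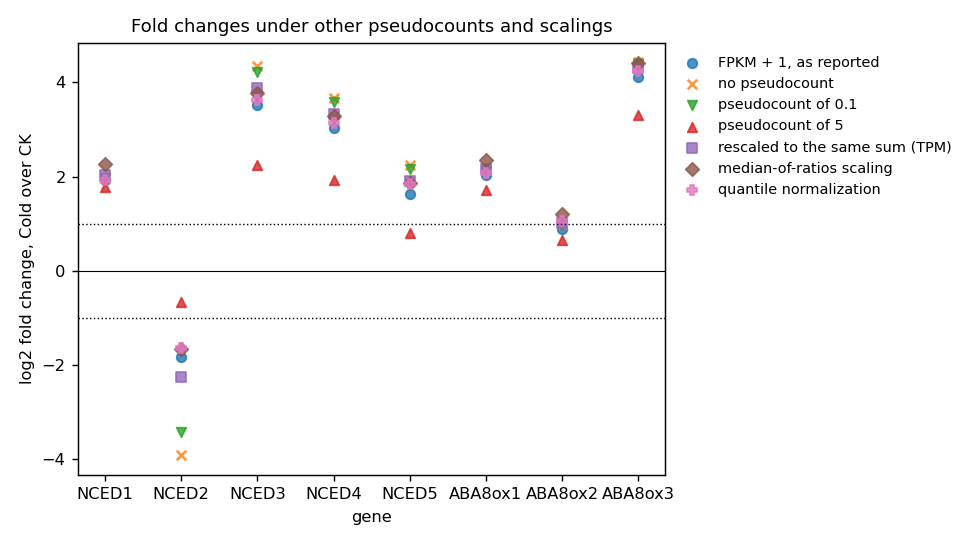
Log2 fold change of each gene, Cold over CK, as reported and under other pseudocounts and scalings, with dotted lines at 2-fold. No marker crosses 0. NCED2 spreads most, from -3.92 with no pseudocount to -0.67 with a pseudocount of 5, and NCED1 stays between 1.78 and 2.27.

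The direction of all 8 genes was the same under 3 pseudocount settings and 3 scalings. A pseudocount cannot turn a direction. Scaling to the same sum or by the median of ratios raised Cold relative to CK, so among the 8 genes it could turn only NCED2. Quantile normalization is no single factor and could turn a direction. The scalings moved the median of all compared loci towards Cold by 0.29 (median of ratios), 0.16 (quantile normalization) and 0.05 (same sum), while NCED2 lay at -1.82. The pseudocount mattered most for the weakly expressed genes. With a pseudocount of 5, NCED5 (0.80) and NCED2 (-0.67) were within 2-fold. The sources used here do not say how reads shared by similar members of the NCED or CYP707A families were counted, so part of them may be listed under another member.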

How the data were processed

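The deposited values are FPKM per locus, made by the authors, with 1 column for Cold and 1 for CK. HISAT2 2.1.0 and featureCounts 1.6.4 are among the tools listed for all assays as one group, with Trimmomatic 0.39, Trim Galore 0.4.3, FastQC, SAMtools and Bowtie, per the submitters' processing notes. Which tool served the RNA-seq libraries, the genome build, the annotation and the use of strand are not stated in these sources, so no coordinates are printed and chromosomes are those in the identifiers. The members and lists were chosen with earlier results of these data known. Loci averaging 1 FPKM or more over both columns were compared by log2(FPKM + 1), with a 2-fold limit. No test was possible with 1 value per treatment. The rule for named loci took all 8 genes and the loci between NCED1 and ABA8ox1.

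Gene names came with the chosen set and not with the table. A RefSeq gene table (ASM3414082v1, 39387 genes) held 0 of the table's identifiers. It held the names of 4 of the 8 genes, NCED3 and ABA8ox1 to ABA8ox3, each on the chromosome written in the identifier. A list of other ABA genes was set aside, since no reference used here pairs it with the identifiers. The calculations were tested on simulated data. Calculations used pandas 2.3.3 and numpy 2.4.6 in Python 3.11.15, and figures matplotlib 3.10.9. The other 27 of 31 libraries (DRIP-seq, ChIP-seq and DNase-seq) were not used here.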

Additional observations from a re-analysis of the deposited data

How the results depend on the processing

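The pseudocount was set to 0.1 or 5, the floor was dropped or lifted to 5 FPKM, and 3 scalings were tried. Having no pseudocount, and leaving a single gene out of a sum, were chosen after seeing the data. Of 101 recomputed values, 79 stayed within 0.5 (log2) or 1.5 times (counts), 20 moved and 2 reversed. Some of the 79 could not move, as the balance of the sums under same-sum and median-of-ratios scaling, which multiply a column by a single factor. The balance of NCED over ABA8ox sums (-0.53) became 0.041 without NCED1 and 0.44 without ABA8ox3, and the ABA8ox sum's log2 fold change became 1.71 without ABA8ox3. The genes at least 2-fold higher numbered 5 to 7. They were 7 under each of the 3 scalings. The count over all loci then also rose, from 2617 to 3238 (same sum), 3766 (median of ratios) and 3097 (quantile normalization). They were 5 with a pseudocount of 5 and with the floor of 5 FPKM, which leaves NCED5 and NCED2 out. The gene at least 2-fold lower became 0 under both of these settings. Over all loci, a pseudocount of 5 gave 1663 higher and 1618 lower, and median-of-ratios scaling 2285 lower. The stricter filter gave 2060 higher and 2605 lower, having fewer loci. For the other changes the cause was not tested. No paired analysis was possible because Cold and CK have 1 column each, and no replicate could be left out. Unknown depth leaves the counting error of low values, such as NCED2 in Cold, unknown.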

Other observations

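The loci within 5 places of the 8 genes in the order of the identifiers numbered 73, of which 19 had a mean of at least 1 FPKM. Of these 19, 2 were at least 2-fold higher in Cold, 4 were at least 2-fold lower and 13 were within 2-fold, with a median log2 fold change of -0.32. Over all 20876 loci compared, 12.5% were at least 2-fold higher and 19.2% lower, with a median of -0.27, so these counts are near the background. The 2 higher loci lay near NCED5 (1.04) and ABA8ox3 (1.49). The locus near ABA8ox3, at 2.66 FPKM in Cold and 0.297 FPKM in CK, reached the floor on its mean through the Cold column alone. None of the 10 loci around NCED2 reached a mean of 1 FPKM, and around NCED4 a single one did, at -0.34. Around NCED3, which had a log2 fold change of 3.52, the 2 expressed neighbours lay at -0.68 and -0.10.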
